A study of Mus musculus with 6 samples.

Results

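The Gimap genes encode the GTPases of the immunity-associated protein family, and 8 of them (Gimap1, Gimap3, Gimap4, Gimap5, Gimap6, Gimap7, Gimap8 and Gimap9) were followed here, chosen by name from the 54532 genes of the count table. The libraries are bulk RNA sequencing of cultured cells labelled as naive CD4+ T cells from C57BL/6 mouse spleen. In the tested condition, 3 cultures were labelled as given NETs (neutrophil extracellular traps: chromatin threads studded with granule proteins, cast out by neutrophils), and 3 were labelled Vehicle. Both conditions shared everything else that the labels state: beads against CD3 and CD28, IL-2, and antibodies that neutralise interferon-gamma and IL-4, for 72 h. The RNA therefore comes from stimulated cultures, not from freshly isolated naive cells. Neither the dose and source of the NETs, nor the age and sex of the animals, nor whether replicates came from separate animals is stated in the labels. P-values therefore measure the spread between these samples, which may be technical.

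GIMAP proteins are lymphocyte GTPases with a guanine nucleotide-binding domain of the AIG1 type, named after a plant gene, and some are anchored to membranes inside the cell. They are best known for keeping resting T cells alive. Loss of Gimap5 causes severe T cell lymphopenia in rats and in mice, and loss of Gimap1 removes mature T and B cells in mice. Gimap3 lies next to Gimap5 and is its closest relative in the mouse, Gimap4 has been tied to the later steps of T cell death, and Gimap6 binds an autophagy protein of the Atg8 family. The human protein GIMAP7 stimulates GTP hydrolysis by another family member.

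The GTP-binding loop shows how closely the genes are related. It is the stretch that holds the phosphates of GTP, and it was located in the longest coding transcript of each gene (GENCODE M21, build GRCm38). The stretches are printed in coding orientation, with capitals marking the codons of the first glycine and of the closing glycine, lysine and serine.
Gimap1: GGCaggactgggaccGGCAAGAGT
Gimap3: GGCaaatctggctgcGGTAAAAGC
Gimap4: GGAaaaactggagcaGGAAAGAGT
Gimap5: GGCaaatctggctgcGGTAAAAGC
Gimap6: GGGaaaacaggaagcGGGAAAAGT
Gimap7: GGGaaaacaggaagtGGAAAGAGC
Gimap8 match 1: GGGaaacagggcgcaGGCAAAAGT
Gimap8 match 2: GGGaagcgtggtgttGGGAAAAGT
Gimap8 match 3: GGAaggagtggggctGGAAAGAGT
Gimap9: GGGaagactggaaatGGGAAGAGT
The sequences of Gimap3 (chr6:48765887-48765910, minus strand) and Gimap5 (chr6:48752594-48752617, plus strand) were identical over all 24 bases. Gimap8 held 3 such loops (at chr6:48650256-48650279, chr6:48656119-48656142 and chr6:48658746-48658769), one for each of its GTPase domains, and the other 7 genes held 1 each. Those of Gimap1 (chr6:48742552-48742575), Gimap4 (chr6:48690421-48690444), Gimap7 (chr6:48723524-48723547) and Gimap9 (chr6:48677523-48677546) lie on the plus strand like those of Gimap8, and that of Gimap6 (chr6:48702750-48702773) on the minus strand. Every one lies within a single coding exon.

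Over the whole coding sequence Gimap3 and Gimap5 matched at 90.7% of 895 aligned bases, whereas the other 20 pairs that leave out the longer Gimap8 matched at 57.9% to 68.8%. The longest run the pair shares exactly has 140 bases. It occupies coding bases 175 to 314 of Gimap3 (chr6:48765681-48765820, minus strand) and 187 to 326 of Gimap5 (chr6:48752684-48752823, plus strand), and it is shown because a read that falls wholly inside it belongs to both genes.
Gimap3 and Gimap5: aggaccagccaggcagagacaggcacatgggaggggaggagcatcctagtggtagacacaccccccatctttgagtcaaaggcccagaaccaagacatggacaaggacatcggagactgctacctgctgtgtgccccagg
Of all windows of 50 bases in the Gimap3 transcript 9.1% also occurred in Gimap5, and of those in the Gimap5 transcript 10.0% occurred in Gimap3. At 100 bases these shares were 2.0% and 2.2%. No window of either length was shared among the other 6 members. How the authors' counting treated reads with more than one match is not given in the sources used, so the counts of Gimap3 and Gimap5 are uncertain to that extent. Gimap1, Gimap5 and Gimap7 also share sequence with overlapping genes that are no members, described with the cluster.

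Read depth was similar, with 17148910 to 18394828 counts in NETs libraries and 15657622 to 18655997 in Vehicle libraries. Cd4 stood far above the CD8 genes, and these genes do not bear on the naive part of the label. Cd4 averaged 885 CPM (counts scaled to a common library total) with NETs and 900 CPM with Vehicle. Cd8a averaged 1.49 CPM with NETs and 1.67 CPM with Vehicle, and Cd8b1 15.3 CPM with NETs and 18.0 CPM with Vehicle. All 8 Gimap genes passed the filter on low counts, and with at least 1243 reads per gene and library the counting error of a single value was at most 2.84%. With edgeR (quasi-likelihood F-test, Benjamini-Hochberg over all genes), 0 of the 13900 genes tested passed an adjusted p of 0.05, and 1776 had an unadjusted p under 0.05. DESeq2 called 130 genes and limma-voom 1. Vehicle replicate 3 lay among the NETs libraries on the first principal component of all genes (−11.5, against −32.9, −11.9 and −0.18 in the NETs libraries and 16.5 and 40.0 in the other Vehicle libraries).

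Together the 8 Gimap transcripts took 0.271%, 0.286% and 0.329% of all counts in NETs replicates 1 to 3, against 0.335%, 0.394% and 0.306% in Vehicle replicates 1 to 3. The Vehicle library with the least, replicate 3, lay below NETs replicate 3, so the groups overlapped. The means were 2950 ± 301 CPM with NETs and 3451 ± 450 CPM with Vehicle (SD, n = 3 each), a log2 ratio of −0.23. Without Vehicle replicate 2 it was −0.12. In bulk RNA, fewer cells that carry these transcripts and less of them per cell cannot be told apart.

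Per unit of length, the 8 genes spanned about an order of magnitude. In the authors' FPKM (fragments scaled by transcript length and library size), averaged over all 6 libraries with the SD between libraries, Gimap4 stood highest at 699 ± 119, followed by Gimap3 at 566 ± 84.6 and Gimap6 at 377 ± 53.9. Gimap1 stood at 178 ± 27.4, Gimap7 at 129 ± 29.9, Gimap9 at 123 ± 9.14, Gimap8 at 69.9 ± 4.81 and Gimap5 at 64.1 ± 4.62. Gimap4 had a higher FPKM than 99.1% of the genes tested and Gimap5 than 83.9%. Over the 6 libraries the FPKM ranges of these neighbours in the order overlapped: Gimap4 and Gimap3, Gimap1 and Gimap7, Gimap7 and Gimap9, and Gimap8 and Gimap5. Gimap4 was above Gimap3 in each library, but that order depends on the length used. The authors' length equalled the mean length of all annotated transcripts of a gene, within 1%, for 94.8% of 10259 genes, and that mean is 1114.2 bases over 6 transcripts for Gimap4 and 2056.5 bases over 2 for Gimap3. Per kilobase of the longest coding transcript (1804 bases for Gimap4, 2145 for Gimap3), Gimap3 came first at 542 ± 81.1 CPM per kilobase and Gimap4 second at 432 ± 73.5, and the other 6 kept their order.

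The comparison asks whether NETs shift these survival-linked transcripts. By edgeR's quasi-likelihood test none of the 8 passed an adjusted p of 0.05 over all genes (background 0.00% of genes). Of the 8, 7 had a log2 fold change below 0, where 49.8% of all genes tested did, and the median was −0.16 against 0.0012 over all genes. At an unadjusted p under 0.05, 3 members (Gimap7, Gimap4 and Gimap3) were on the lower side and 0 on the higher, against a background of 6.06% of genes on the lower and 6.72% on the higher side. These 3 correlated with each other at 0.956 to 0.977 over the 6 libraries, so they are not separate observations. Without Vehicle replicate 3, Gimap7 passed the adjusted threshold (adjusted p = 0.0389 by edgeR, background 2.81%), and with no filter on low counts it did so too (adjusted p = 0.00439, background 1.30%). No member passed by DESeq2 (background 0.935%), without NETs replicate 1 (background 0.00696%) or without NETs replicate 2 (background 0.0140%). Without Vehicle replicate 2, the library with the highest Gimap level, the unadjusted count on the lower side was 1 of 8 (background 3.76%) and the median −0.074.

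**Figure D1:**
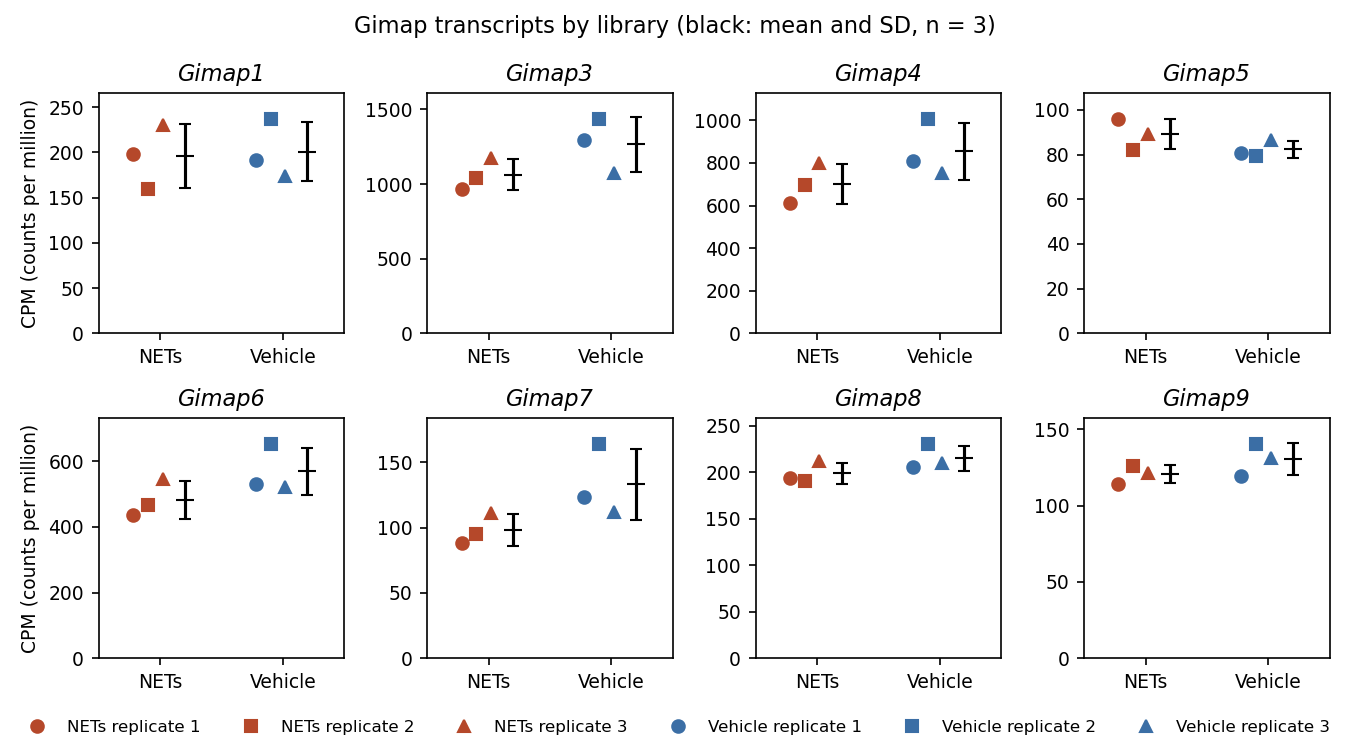
CPM (y axis, linear from 0) of the 8 Gimap transcripts in NETs and Vehicle libraries (x axis). Coloured symbols are single libraries by replicate number, and black bars give mean and SD (n = 3 each). Vehicle replicate 2 is the highest point for 7 genes, and in Gimap5 it is the lowest.

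Gimap7 had the largest difference of the family. It stood at 88.3, 94.9 and 112 CPM with NETs, against 124, 164 and 112 CPM with Vehicle, in replicates 1 to 3. The highest NETs library and the lowest Vehicle library nearly touched. Scaled by total counts, the groups did not overlap (111.55 CPM in NETs replicate 3 against 112.21 CPM in Vehicle replicate 3). By this scaling 9.04% of genes were lower and 7.68% higher with NETs without overlap. After TMM scaling NETs replicate 3 lay above Vehicle replicate 3 (113 against 111.5 CPM), and 7.86% of genes were lower and 8.72% higher without overlap. The log2 fold change was −0.43 with an SE of 0.14 (95% interval −0.73 to −0.13; edgeR adjusted p = 0.252), a level 0.743 times that of Vehicle. Without Vehicle replicate 2 it was −0.24 (edgeR adjusted p = 0.639), a move of over 1.5 times.

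The 3 most abundant members lay on the same side. Gimap4, the member tied to T cell death, had 612, 696 and 800 CPM with NETs, against 808, 1005 and 752 CPM with Vehicle. Vehicle replicate 3 lay between NETs replicates 2 and 3, and the log2 fold change was −0.27 with an SE of 0.12 (edgeR adjusted p = 0.368). Gimap3, the Gimap5 relative, had 969, 1039 and 1175 CPM with NETs, against 1292, 1434 and 1071 CPM with Vehicle. Here too Vehicle replicate 3 lay below NETs replicate 3, and the log2 fold change was −0.24 with an SE of 0.11 (edgeR adjusted p = 0.373). Gimap6, the Atg8 binder, had 435, 467 and 547 CPM with NETs, against 532, 652 and 522 CPM with Vehicle. Its NETs replicate 3 exceeded 2 Vehicle libraries, and the log2 fold change was −0.23 with an SE of 0.11 (edgeR adjusted p = 0.401). Leaving out Vehicle replicate 2 brought the log2 fold changes to −0.13 for Gimap4 and Gimap3 and −0.11 for Gimap6.

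Gimap5, the gene whose loss causes lymphopenia, was the one member above 0. Its levels were 95.8, 82.3 and 89.1 CPM with NETs, against 80.7, 79.4 and 86.7 CPM with Vehicle. NETs replicate 2 lay below Vehicle replicate 3, so the groups overlapped, and the log2 fold change was 0.13 with an SE of 0.091 (95% interval −0.069 to 0.32; edgeR adjusted p = 0.580). Gimap1, needed for mature lymphocytes, had 198, 160 and 230 CPM with NETs, against 192, 237 and 174 CPM with Vehicle. These values were interleaved, and the log2 fold change of −0.024 with an SE of 0.14 (95% interval −0.32 to 0.28; edgeR adjusted p = 0.963) changed sign when NETs replicate 2 (0.11) or Vehicle replicate 2 (0.12) was left out.

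Gimap8, the member with 3 GTPase domains, and Gimap9, whose role is less well described, varied least among the members on the lower side. Gimap8 averaged 199 ± 11.2 CPM with NETs and 215 ± 13.4 CPM with Vehicle (SD, n = 3 each), and the log2 fold change was −0.10 with an SE of 0.086 (95% interval −0.29 to 0.081; edgeR adjusted p = 0.641). Gimap9 averaged 121 ± 5.83 CPM with NETs and 130 ± 10.5 CPM with Vehicle (SD, n = 3 each), also −0.10 (SE 0.090, 95% interval −0.29 to 0.089; edgeR adjusted p = 0.660). As ratios to the Vehicle level, the intervals ran from 0.820 to 1.06 for Gimap8 and from 0.815 to 1.06 for Gimap9.

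**Figure D2:**
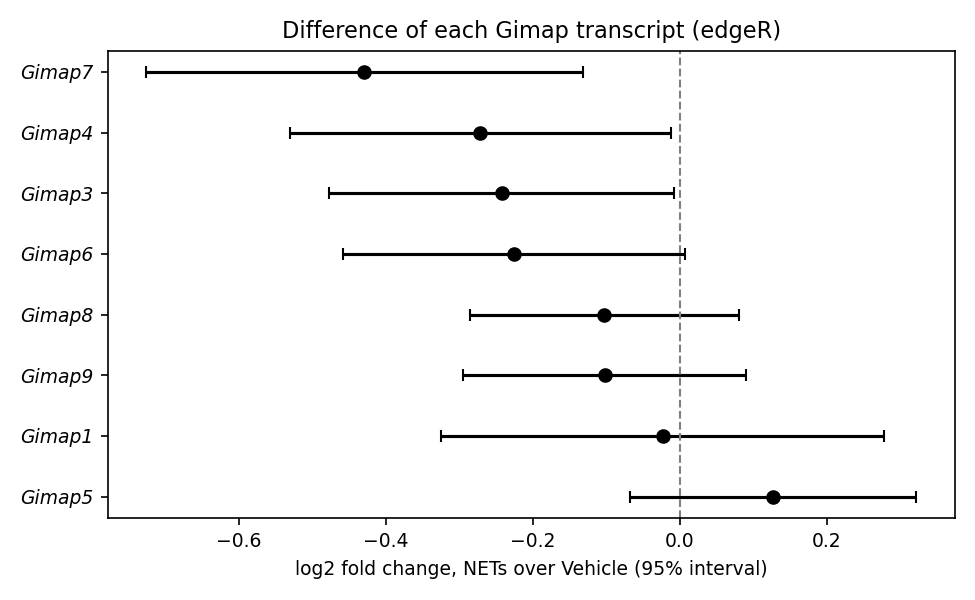
Log2 fold change of each Gimap transcript, NETs over Vehicle (x axis), with 95% intervals from the edgeR fit, ordered from the lowest to the highest. The interval lies wholly below 0 for Gimap7 (−0.73 to −0.13), Gimap4 and Gimap3 before adjustment over all genes, and Gimap5 is the one point above 0.

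Across libraries, Gimap3, Gimap4, Gimap6 and Gimap7 varied together. Over the 6 libraries the Pearson correlations of their log2 CPM were 0.927 to 0.990 in the 6 pairs, a description over libraries that share the treatment contrast. How often pairs of other genes reach such values was not computed. Gimap8 and Gimap9 correlated with these 4 and with each other at 0.583 to 0.953, and Gimap1 with the members other than Gimap5 at 0.267 to 0.787. Gimap5 ran at −0.661 to 0.136 with the others. Vehicle replicate 2 was the highest library for each of the other 7 and the lowest for Gimap5 in CPM (after TMM scaling, Vehicle replicate 1 was the lowest for Gimap5).

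**Figure D3:**
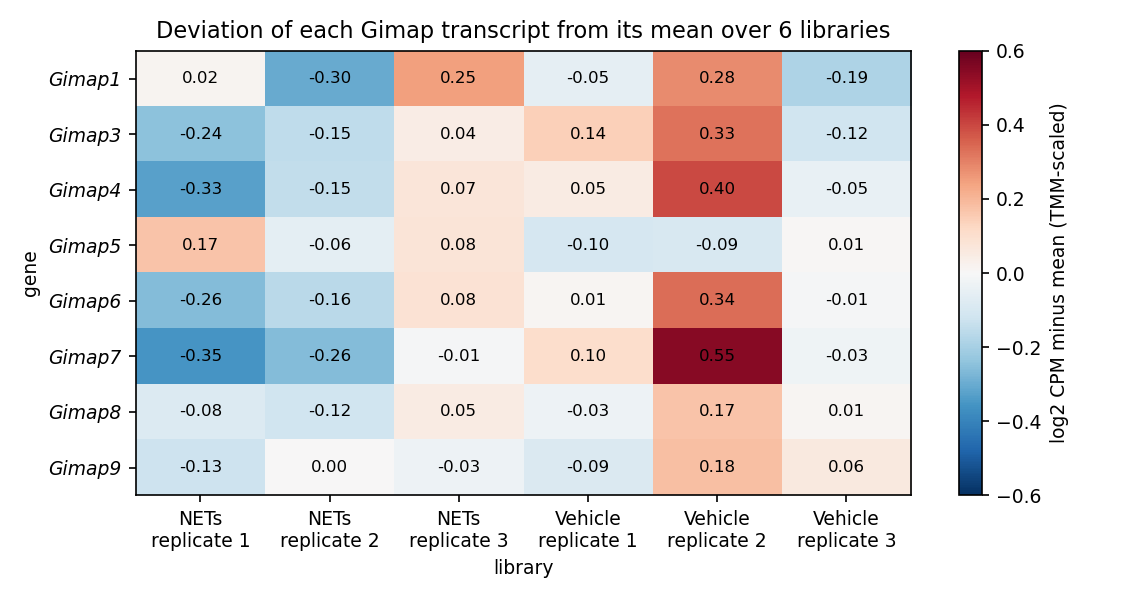
Deviation of each Gimap transcript (rows) from its own mean over the 6 libraries (columns, NETs then Vehicle), in TMM-scaled log2 CPM. Vehicle replicate 2 carries the largest positive values, 0.55 for Gimap7 and 0.40 for Gimap4, and NETs replicate 1 the most negative, −0.36 for Gimap7 and −0.33 for Gimap4, while Gimap5 is at −0.094 and 0.17 in these libraries.

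The summed Gimap level placed the libraries in the same order as the first principal component of all genes. From high to low the component ran Vehicle replicate 2, Vehicle replicate 1, NETs replicate 3, Vehicle replicate 3, NETs replicate 2 and NETs replicate 1, and the summed level was 3943, 3352, 3286, 3059, 2856 and 2707 CPM in that order. The part of this library order in the Gimap differences was not tested.

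The composition of the family, which does not depend on library scaling, is given by each member's share of Gimap reads. Gimap3 made up 36.0% ± 0.353 of Gimap reads with NETs and 36.6% ± 1.78 with Vehicle, Gimap4 23.8% ± 1.01 with NETs and 24.7% ± 0.707 with Vehicle, and Gimap6 16.4% ± 0.289 with NETs and 16.5% ± 0.608 with Vehicle (SD, n = 3 each). In each of these 3 the means differed by less than the larger SD. Gimap7 held 3.26%, 3.32% and 3.40% with NETs, against 3.69%, 4.16% and 3.67% with Vehicle, so its share did not overlap between the groups. This share reuses the Gimap7 reads given above, so it is not a separate observation. How often such shares of other genes lie apart was not computed. In TMM-scaled CPM, where Gimap7 itself overlapped, 7.86% of genes were lower without overlap. Gimap5 held 3.54%, 2.88% and 2.71% with NETs, against 2.41%, 2.01% and 2.83% with Vehicle, which overlapped.

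The 8 genes occupy 123.6 kb of chromosome 6 (deposited coordinates, which match GRCm38, chr6:48647234-48770851), in the order Gimap8, Gimap9, Gimap4, Gimap6, Gimap7, Gimap1, Gimap5, Gimap3, with 6 on the plus strand and Gimap6 and Gimap3 on the minus strand. From one end to the other, the gene spans were those of Gimap8 (ENSMUSG00000064262, chr6:48647234-48660875), Gimap9 (ENSMUSG00000051124, chr6:48676129-48679114), Gimap4 (ENSMUSG00000054435, chr6:48684549-48692060) and Gimap6 (ENSMUSG00000047867, chr6:48701582-48708225), followed by Gimap7 (ENSMUSG00000043931, chr6:48718621-48724636), Gimap1 (ENSMUSG00000090019, chr6:48739054-48743795), Gimap5 (ENSMUSG00000043505, chr6:48746197-48754210) and Gimap3 (ENSMUSG00000039264, chr6:48764464-48770851). All 8 are annotated as protein-coding. Of 20 other genes within 100 kb, 10 had enough reads to be tested and 0 passed the adjusted threshold in edgeR. Of the 10, 1 (Gm28053, lower with NETs) had an unadjusted p under 0.05. The background was 6.06% of genes on the lower and 6.72% on the higher side. Gm28053 is annotated as a protein-coding gene that spans Gimap7, Gimap1 and part of Gimap5, and its annotated transcripts share 10.3% of the 50-base windows of Gimap1, 5.5% of those of Gimap5 and 2.6% of those of Gimap7. It had 3.03, 3.04 and 3.38 CPM with NETs, against 5.41, 8.75 and 3.36 CPM with Vehicle, a log2 fold change of −0.88 with an SE of 0.33 (edgeR adjusted p = 0.292). Vehicle replicate 3 sat among the NETs libraries. The noncoding gene Gimap1os, which overlaps Gimap1 on the other strand, averaged 14.9 ± 0.504 CPM with NETs and 15.5 ± 1.93 CPM with Vehicle (log2 fold change −0.051), and without knowledge of strand use its reads cannot be told from those of Gimap1 where they overlap. Gm44226, a long noncoding gene between Gimap5 and Gimap3, had a log2 fold change of −0.40 with an SE of 0.21 (edgeR adjusted p = 0.440) and 4833403J16Rik beside it −0.011.

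The flanking genes outside the cluster were far less abundant. Upstream, Lrrc61, with a leucine-rich repeat, averaged 16.3 CPM with NETs and 17.0 CPM with Vehicle, and the log2 fold changes were −0.054 for Lrrc61, 0.011 for the zinc finger gene Repin1, −0.23 for the zinc finger gene Zfp775 and 0.096 for AI854703. Downstream, the membrane proteins Tmem176b and Tmem176a were at −0.17 and −0.27. The adjusted p of these 6 was at least 0.587 by edgeR.

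**Figure D4:**
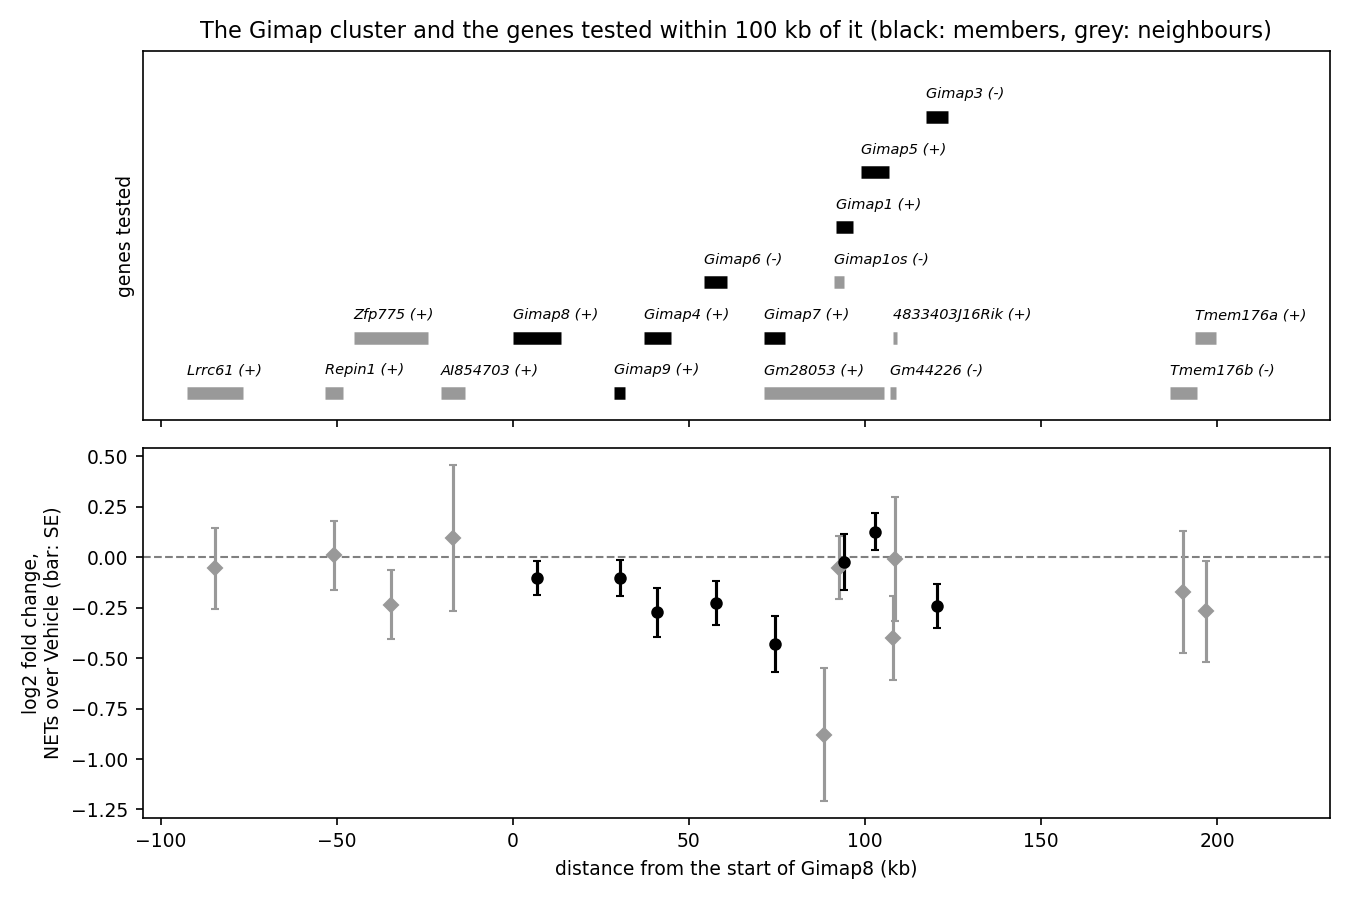
Upper panel, positions of the Gimap genes (black) and of the 10 tested neighbours within 100 kb (grey), by distance from the start of Gimap8 in kb, with strand in brackets and height used only to separate labels. Lower panel, their log2 fold changes (NETs over Vehicle, bars SE), where the lowest members are Gimap7 (−0.43) and Gimap4 (−0.27), and Gm28053 lies at −0.88.

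Gimap4 and Gimap6 had the most similar pattern of any pair (r = 0.990 over 6 libraries), so the 250 bases before their RefSeq starts (build GRCm38.p6) are shown, in gene orientation. Capitals mark matches on either strand to TTCNNNGAA (the STAT motif), GGAAGT (ETS), TGTGGT (RUNX), GTAAACA (FOXO) or CTTTGA (TCF/LEF).
Gimap4: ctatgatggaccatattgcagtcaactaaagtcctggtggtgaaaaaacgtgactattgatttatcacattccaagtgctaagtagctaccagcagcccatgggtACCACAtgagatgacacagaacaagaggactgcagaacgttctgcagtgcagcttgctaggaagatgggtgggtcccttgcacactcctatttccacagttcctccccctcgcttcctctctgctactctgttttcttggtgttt
Gimap6: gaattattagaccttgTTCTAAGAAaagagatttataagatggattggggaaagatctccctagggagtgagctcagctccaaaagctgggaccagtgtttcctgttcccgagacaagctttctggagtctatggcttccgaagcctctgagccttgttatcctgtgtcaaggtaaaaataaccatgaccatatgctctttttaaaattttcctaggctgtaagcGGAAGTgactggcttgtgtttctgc
The Gimap4 window (chr6:48684328-48684577, plus strand) held a RUNX match whose first base lay 145 bases before the start. That of Gimap6 (chr6:48708245-48708494, minus strand) held a STAT match 234 bases and an ETS match 25 bases before the start, so the pair shared none of these motifs in this window. Over the 9 windows of the 8 genes (Gimap8 has a pair of starts), RUNX was in 3 (Gimap4, Gimap7 and Gimap1), STAT in 2 (Gimap8 and Gimap6), ETS in 2 (Gimap6 and Gimap5), FOXO in 1 (Gimap3) and TCF/LEF in 0. Among all 32851 promoter windows of this length the shares were 14.0% for RUNX, 7.0% for STAT, 19.7% for ETS, 3.2% for FOXO and 13.8% for TCF/LEF. The matches overlap no other match in these windows and describe letters only.

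The genes around Gimap function were read from lists of partners, survival and naive state. Reported partners of GIMAP proteins numbered 10, all tested, with 0 past the adjusted threshold by edgeR in either direction, 3 at an unadjusted p under 0.05 on the higher side and 1 on the lower (background 6.72% and 6.06%), and a median log2 fold change of 0.064. The 3 were death-promoting BCL2 relatives. Bak1, a pore former of the outer mitochondrial membrane, had 69.4, 62.9 and 70.6 CPM with NETs, against 57.9, 55.2 and 56.2 CPM with Vehicle, with no overlap and a log2 fold change of 0.27 with an SE of 0.094 (edgeR adjusted p = 0.271). Bad, an antagonist of the survival proteins, had 24.1, 18.0 and 22.2 CPM with NETs, against 15.9, 15.8 and 16.7 CPM with Vehicle, also without overlap, at 0.42 (SE 0.15; edgeR adjusted p = 0.277). Bax, the other pore former, had 185, 166 and 146 CPM with NETs, against 126, 105 and 169 CPM with Vehicle, where Vehicle replicate 3 overlapped the NETs libraries (0.33, SE 0.14; edgeR adjusted p = 0.368). After TMM scaling, 2 of the 10 partners were higher without overlap and 1 lower (background 8.72% and 7.86% of genes).

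The 1 on the lower side was Bcl2l11, which encodes the death inducer Bim. It had 108, 112 and 105 CPM with NETs, against 140, 137 and 116 CPM with Vehicle, with no overlap and a log2 fold change of −0.26 with an SE of 0.091 (edgeR adjusted p = 0.271). The survival gene Bcl2 stood at −0.078, Gsk3b, a kinase tied to Gimap5 in mouse T cells, at 0.041 and Gabarapl2, the Atg8 protein that GIMAP6 binds, at 0.086. In the full BCL2 family list 15 of 16 genes were tested, with the same 4 genes at an unadjusted p under 0.05. Of these, 3 were higher and 1 lower (background 6.72% and 6.06%), and the list median was 0.13, against 0.0012 over all genes. Without overlap after TMM scaling, 3 of the 15 tested genes were higher and 1, Bcl2l11, was lower (background 8.72% and 7.86%). Of the 5 Atg8 family genes 0 had an unadjusted p under 0.05 (background 6.72% higher and 6.06% lower), with a median of 0.0077. Among them Map1lc3a stood at 0.53 (SE 0.30), from 5.91 CPM with NETs and 4.10 CPM with Vehicle, and Gabarapl1 at −0.14.

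Of 20 naive and quiescence genes, all tested, 14 had a log2 fold change below 0 (background 49.8%), the median was −0.12, 0 passed the adjusted threshold by edgeR, and 2, among them Il7r, had an unadjusted p under 0.05, both on the lower side (background 6.06%). Il7r, the IL-7 receptor chain that sustains resting T cells, had 105, 133 and 146 CPM with NETs, against 201, 213 and 154 CPM with Vehicle. The groups did not overlap, and the log2 fold change was −0.56 with an SE of 0.14 (edgeR adjusted p = 0.223). After TMM scaling, 2 of the 20 listed genes were lower without overlap and 0 higher (background 7.86% and 8.72%). The chromatin organiser Satb1 stood at −0.17, Foxo1, a factor that maintains the naive state, at −0.069 and Klf2, a quiescence factor, at 0.057.

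By pattern over the 6 libraries, the genes most like the mean Gimap profile (of 9583 genes with at least 5 CPM and a settled symbol) were Rin3, a Rab5 exchange factor, at a Pearson r of 0.999, Pecam1, an adhesion molecule also carried by naive T cells, at 0.997, the neuropeptide receptor Vipr1 at 0.997, the antiproliferative gene Btg1 at 0.996 and the retrieval receptor Kdelr1 at 0.996. The most opposite were Dtl, which works in replication-coupled protein degradation, at −0.999, the trafficking gene Ergic1 at −0.996 and Yars2, the mitochondrial tyrosyl-tRNA synthetase, at −0.995. These 8 were picked as extremes of many genes over few libraries. Their log2 fold changes lay between −0.30 for Vipr1 and 0.33 for Yars2, and the smallest adjusted p was 0.367 (Ergic1, by edgeR).

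Other cell types were traced by marker lists, since B cells and endothelium also express Gimap genes. Summed B cell markers (5 genes, none at 0 in all libraries) were at 12.4 to 18.2 CPM in NETs libraries and 15.3 to 17.1 CPM in Vehicle libraries. The 4 NK cell markers were at 4.37 to 7.01 CPM with NETs and 6.07 to 10.6 CPM with Vehicle. Eomes, the 1 of these 4 with enough reads to be tested, held most of that sum. It had 5.59, 6.41 and 4.14 CPM with NETs, against 10.1, 5.75 and 6.71 CPM with Vehicle. The CD8 markers Cd8a and Cd8b1 were at 13.1 to 19.5 CPM with NETs and 18.4 to 20.8 CPM with Vehicle. Endothelial markers other than Pecam1 (Cdh5, Kdr, Tek and Emcn, the last at 0 throughout) were at 1.36 to 1.46 CPM with NETs and 0.482 to 1.43 CPM with Vehicle. The 12 neutrophil and myeloid markers were at 40.2 to 50.03 CPM with NETs and 26.8 to 36.8 CPM with Vehicle, without overlap, with Ly6g at 0 in all libraries. Of the 6 tested, 0 passed the adjusted threshold by edgeR, 2 (Lyz2 and S100a9) were higher at an unadjusted p under 0.05 (background 6.72%), and 3 were higher without overlap after TMM scaling (background 8.72%). S100a9 is in both of these counts, but it passed the filter on low counts only through the NETs libraries. Its place in them therefore carries no weight. Lyz2, a lysozyme gene of myeloid cells, held most of that sum (30.8, 38.8 and 38.5 CPM with NETs, against 30.1, 19.4 and 21.0 CPM with Vehicle), and S100a9, a neutrophil calcium-binding protein gene, had 0.932, 1.30 and 1.17 CPM with NETs and no reads with Vehicle. Their part in the Gimap values was not tested. The 10 CD4 T cell markers were at 4432 to 4777 CPM with NETs and 4430 to 5068 CPM with Vehicle. Of their log2 fold changes 7 of 10 were below 0 (background 49.8%), with a median of −0.078 against 0.0012 over all genes. By edgeR 0 had an unadjusted p under 0.05 in either direction (background 6.72% higher and 6.06% lower). After TMM scaling, 1 was higher without overlap (background 8.72%) and 0 lower (background 7.86%).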

How the data were processed

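RNA from 6 cultures was sequenced as bulk libraries, 3 labelled NETs and 3 Vehicle, grouped by their titles and treatment labels. As deposited by the authors, the values are raw gene-level counts (whole numbers, no scaling) and FPKM. The submitters' processing notes name STAR, DESeq2 and build mm9, with no versions. The counting program, strand use and filters are not given in the sources used. Deposited coordinates equalled those of GRCm38 (GENCODE M21) for 53462 of 54409 shared genes (98.3%), so they are given as GRCm38.

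Counts were filtered with filterByExpr (13900 genes kept, 0.135% of reads outside), scaled by TMM and tested with edgeR 4.0.16 in R 4.3.3 (robust quasi-likelihood fit, group as the only term, two-sided, Benjamini-Hochberg over all genes tested, threshold 0.05). Standard errors are the log2 fold change divided by the root of F. CPM in the text uses total counts. FPKM served for levels between genes and for alternatives with limma 3.58.1 (pseudocounts 0.1 and 1), and DESeq2 1.42.0 was a further alternative. On simulated counts from these libraries (13606 genes tested), edgeR called 11.3% of genes changed 1.25-fold, 45.7% at 1.5-fold and 80.3% at 2-fold. It also called 7 unchanged genes. The simulation drew each gene independently, with no shift shared by the genes of a library, so these shares need not hold for the measured libraries. Counting errors cover sampling of reads only because no molecular identifiers are recorded. No libraries agreed within sampling noise.

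Named genes were all Gimap genes, tested genes within 100 kb of the cluster, the 5 genes most and 3 genes least like the mean Gimap pattern, and, per list, the 3 genes with the smallest p and 8 fixed genes (Il7r, Klf2, Foxo1, Bcl2, Bcl2l11, Bax, Gabarapl2 and Gsk3b). One gene of the naive and quiescence list that this rule names is not reported here. The members and lists were chosen with earlier results of these data known. Coding sequences were aligned with Biopython 1.88.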

Additional observations from a re-analysis of the deposited data

How the results depend on the processing

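Across 16 alternatives to the main test, the direction held in all 16 for Gimap3, Gimap4, Gimap5, Gimap6, Gimap7, Gimap8 and Gimap9, and in 14 of 16 for Gimap1, which was at 0.110 without NETs replicate 2 and 0.121 without Vehicle replicate 2. No member passed an adjusted p of 0.05 except Gimap7, which did so with no filter on low counts (−0.42, adjusted p = 0.00439 by edgeR) and without Vehicle replicate 3 (−0.54, adjusted p = 0.0389 by edgeR); the cause was not tested. Its other adjusted p-values went up to 0.812, with 0.0728 by DESeq2. Leaving out each library in turn gave log2 fold changes of −0.54 to −0.24 for Gimap7, −0.38 to −0.13 for Gimap4, −0.35 to −0.13 for Gimap3, −0.33 to −0.11 for Gimap6, −0.16 to −0.042 for Gimap8, −0.17 to −0.037 for Gimap9, −0.16 to 0.12 for Gimap1 and 0.072 to 0.19 for Gimap5. The summed level had a log2 ratio of −0.31 to −0.12 when libraries were left out in turn, −0.23 to −0.22 otherwise.

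The count of genes past the threshold was 0 in the main test, 322 with no filter on low counts, 130 with DESeq2, 1 with limma-voom and 2 with limma-trend on FPKM at both pseudocounts. It was 0 to 405 when libraries were left out in turn, the highest without Vehicle replicate 3, with 1 and 2 without NETs replicates 1 and 2. Same-numbered libraries did not deviate together (r of −0.0254, −0.0596 and −0.175), with differently numbered ones at −0.179 to 0.223. So few libraries cannot show whether equal numbers mark a shared animal or batch. With the replicate block the count of genes past the threshold was 0, and the Gimap7 value was −0.42 (adjusted p = 0.440 by edgeR). The block left 1 member lower at an unadjusted p under 0.05 (background 4.47%), against 3 without it (background 6.06%). The fit to protein-coding genes alone was chosen after seeing the data and called 0 genes.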

Other observations

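Ratios between Gimap members within a library cancel library scaling. Of the 28 pairs of members, 7 had ratios that did not overlap between NETs and Vehicle libraries, and 6 of these 7 involved Gimap7. The pairs with Gimap7 all reuse its reads, so they are not separate observations. The share without overlap among pairs of other genes was not computed. The ratio of Gimap4 to Gimap7 reads was 6.93, 7.34 and 7.18 with NETs, against 6.54, 6.13 and 6.70 with Vehicle. The ratio of Gimap3 to Gimap5 reads ran from 10.1 to 13.2 with NETs, against 12.4 to 18.1 with Vehicle. Vehicle replicate 3 lay within the NETs range, and this pair shares stretches of sequence. These ratios were chosen after their values were seen, and no test was made of them.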
